A study of Mus musculus with 4 samples.

Results

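The transcriptional regulators of brown and beige fat identity were examined as 10 genes, found by symbol in the deposited table and all present among its 51912 genes. They were listed by their known roles, as 6 activators (Prdm16, Ebf2, Ehmt1, Zfp516, Mecom and Irf4) and 4 corepressors or repressors (Ctbp1, Ctbp2, Tle3 and Zfp423). All 10 had enough reads to be among the 15643 genes tested, with 180 to 3394 reads per library. RNA had been sequenced from subcutaneous white adipose tissue, which lies under the skin, of C57BL/6 mice aged 8 weeks that received either BML-260, a small molecule that inhibits the phosphatase DUSP22, or its vehicle DMSO. There were 2 libraries per treatment, A and B. Dose, route, duration and sex are not stated in the sources used here, and neither is the relation of the 4 libraries to the 8 mice that the series describes. The p-values therefore measure only the spread between libraries, which may be technical.

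Brown and beige adipocytes burn fuel to make heat, and beige cells appear within white depots after cold or adrenergic stimulation. Their identity rests on a small set of nuclear proteins. PRDM16 is a zinc finger coregulator that joins PPARG and C/EBP factors at brown fat genes and, with the corepressors CTBP1 and CTBP2, silences white fat genes. EBF2 opens chromatin at brown fat genes, EHMT1 is a histone methyltransferase in the PRDM16 complex, and ZFP516 is a cold-induced activator of Ucp1. ZFP423 holds EBF2 in check in white adipocytes, and TLE3 competes with PRDM16 for PPARG.

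None of the 10 regulators passed the test for a difference between BML-260 and vehicle, while Ucp1, the heat-producing proton carrier they are known to control, lay at 7.88 and 9.68 CPM (read counts scaled to library size) in the vehicle libraries and at 251 and 263 in the BML-260 libraries. Of the regulators, Irf4 had the largest difference, 1.60-fold higher with BML-260 (95% confidence interval 1.18 to 2.18). Zfp423 lay in the other direction at 0.774-fold (0.541 to 1.11), and the other 8 lay between 1.005-fold and 1.195-fold. Prdm16, the best known of them, had a mean of 52.9 ± 3.31 CPM in vehicle libraries against 56.3 ± 12.1 in treated libraries (SD, n = 2 each).

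With p adjusted over all tested genes by Benjamini-Hochberg, edgeR's quasi-likelihood test called 0 of the 10 members at 0.05, where 0.00639% of all tested genes were (Ucp1 alone). DESeq2 also called 0 of the 10, against 2.69% of the 15036 genes to which it gave an adjusted p. At an unadjusted p under 0.05, edgeR counted 1 member higher (Irf4) and 0 lower, against 7.45% of tested genes higher and 3.61% lower. The groups did not overlap for 2 members, Irf4 and Mecom, both higher with BML-260, and for 0 lower. Over all tested genes these shares were 22.9% and 21.5%, so the share of members higher was near the background and that of members lower was below it. The median log2 fold change over the members was 0.06 and over all tested genes 0.02. Its size regardless of sign was 0.08 for the members at the median and 0.20 for all tested genes, and 7 of the 10 members lay within 0.1 of zero. Of the 10 fitted values 9 were above zero, but only 5 were with library totals in place of scaling factors. Skeletal muscle transcripts were more abundant in the treated libraries, where the 12 muscle markers took a larger share of counts, with 0.0352% and 0.915% in vehicle and 2.68% and 3.73% in BML-260. Their part in the values of the members was not tested.

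**Figure D1:**
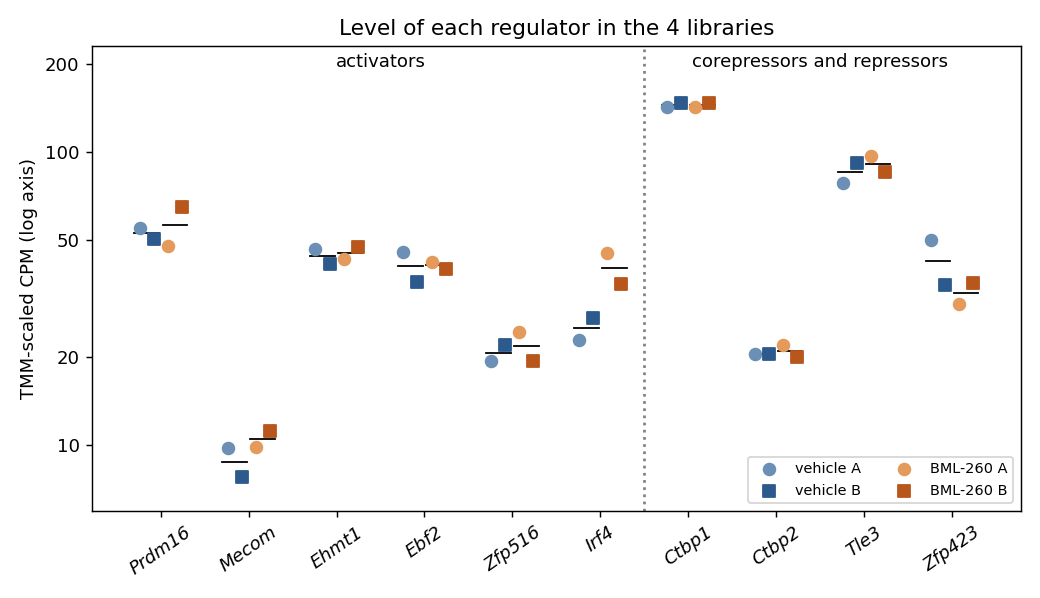
Level of each regulator in TMM-scaled CPM on a log axis, with 1 point per library and a short line at each group's mean. Irf4 is the member whose BML-260 points, 45.2 and 35.4, stand clear of its vehicle points, 22.9 and 27.3, while Ctbp1 is nearly the same in all 4 libraries.

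Among the activators, Prdm16 lay at 55.2 and 50.6 CPM in vehicle A and B, against 47.8 and 64.8 in BML-260 A and B. The BML-260 libraries thus enclosed both vehicle values, and the larger difference was within the treated group. Its log2 fold change was 0.09 (SE 0.18, 95% interval -0.36 to 0.54, edgeR adjusted p = 0.880). Without BML-260 B the value was -0.15.

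Mecom encodes EVI1 and its longer PR-domain form, a close relative of PRDM16 that can replace it in part in brown fat. It was the scarcest of the 10 by reads, at 9.83 and 7.78 CPM in vehicle against 9.87 and 11.2 in BML-260. The groups were separated only by the small step from vehicle A to BML-260 A, which stood on 207 and 205 reads. The log2 fold change was 0.26 (SE 0.21, 95% interval -0.28 to 0.80, edgeR adjusted p = 0.688). Endothelial cells also express Mecom, and the 8 endothelial markers, led by Cdh5 and Pecam1, had a summed level of 788 to 906 CPM in vehicle and 524 to 714 in BML-260, and their part in the Mecom level was not tested. In bulk tissue, fewer cells of a type and less RNA per cell cannot be told apart.

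Ehmt1, the methyltransferase gene, lay at 46.7 and 41.6 CPM in vehicle against 43.1 and 47.5 in BML-260, with overlapping groups. Ebf2 lay at 45.6 and 36.2 CPM in vehicle against 42.1 and 40.1 in BML-260, both treated values between the vehicle ones. Zfp516 lay at 19.5 and 21.96 CPM in vehicle against 24.3 and 19.4 in BML-260. Log2 fold changes of these 3 genes were 0.04 (SE 0.13) for Ehmt1, 0.01 (SE 0.15) for Ebf2 and 0.08 (SE 0.17) for Zfp516. The 95% intervals as folds ran from 0.820 to 1.28 for Ehmt1, from 0.770 to 1.31 for Ebf2 and from 0.786 to 1.41 for Zfp516, so changes of that size could not be told from none with these libraries.

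Irf4 encodes an interferon regulatory factor that, in fat, is known for driving thermogenic genes together with PGC-1alpha and for raising lipolysis enzymes in fasting, and in lymphocytes and macrophages for their differentiation. It lay at 22.9 and 27.3 CPM in vehicle against 45.2 and 35.4 in BML-260, from 483, 631, 938 and 777 reads. Both treated libraries were above both vehicle libraries, with the higher value in BML-260 A. Its log2 fold change was 0.68 (SE 0.18), and edgeR gave 0.0104 as its unadjusted and 0.348 as its adjusted p, rank 468 among the tested genes by p. DESeq2 gave an adjusted p of 0.108. Without BML-260 A the value was 0.482 and without BML-260 B 0.843.

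Irf4 is expressed by several immune cell types, whose markers differed between the libraries. The 8 B cell markers, led by Cd79a and Cd22, summed to 1.94 and 2.59 CPM in vehicle, against 190 (BML-260 A) and 3.23 (BML-260 B). The 10 T and NK cell markers, led by Tcf7 and Cd8a, summed to 10.1 and 25.7 CPM in vehicle, against 119 (BML-260 A) and 14.7 (BML-260 B). The 9 macrophage and dendritic cell markers, led by C1qa and C1qb, summed to 947 and 1132 CPM in vehicle, against 1348 (BML-260 A) and 770 (BML-260 B). C1qa and C1qb themselves were highest in vehicle B. The 5 plasma cell markers, led by Xbp1 and Sdc1, summed to 296 and 274 CPM in vehicle, against 217 (BML-260 A) and 242 (BML-260 B), although the immunoglobulin gene Igkc among them was highest in BML-260 A, at 40.5 CPM. In BML-260 B the B cell sum was just above both vehicle libraries, though not every marker on that list was. The T and NK sum lay between the vehicle libraries, and the macrophage and plasma cell sums below both. Xbp1 made up most of the plasma cell sum, at 218 CPM in BML-260 B against 277 and 255 in vehicle. The other plasma cell markers were above both vehicle libraries in BML-260 B. The part of these immune cell types in the Irf4 level of either BML-260 library was not tested.

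**Figure D2:**
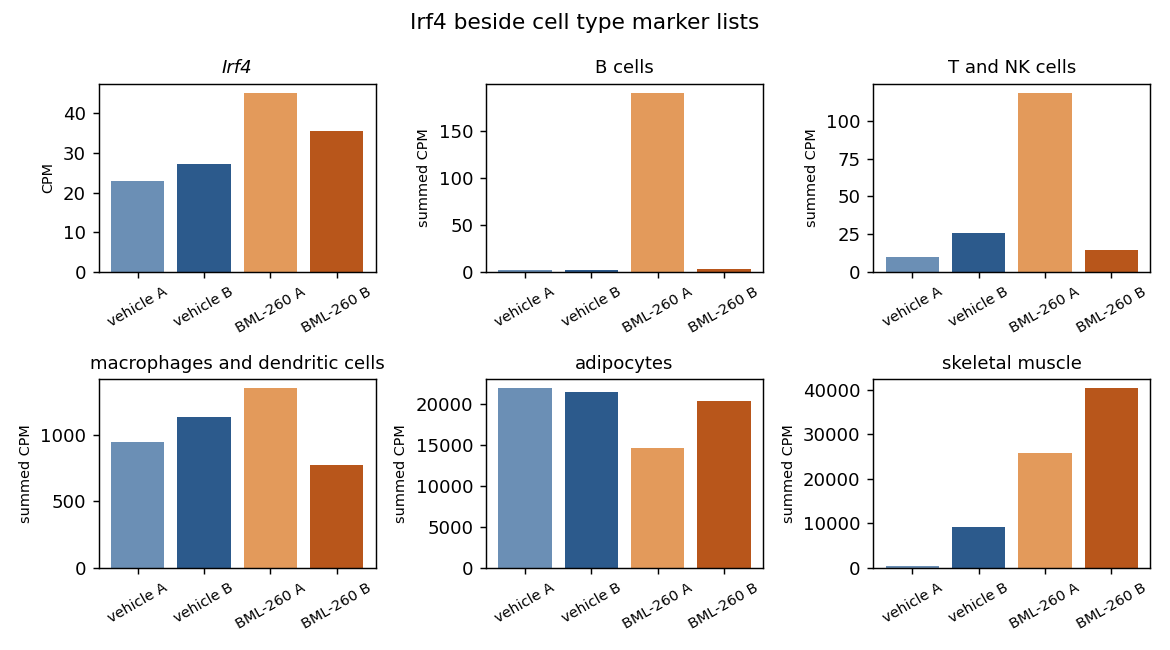
Irf4 in CPM and the summed CPM of 5 marker lists, each as 1 bar per library on its own axis from 0. Irf4 is above both vehicle values in both BML-260 libraries, and the B cell and the T and NK cell sums are highest in BML-260 A. The B cell sum in BML-260 B, 3.23 CPM, is close to the vehicle values of 1.94 and 2.59.

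The promoter of Irf4 is shown because it belongs to the member with the largest difference. It covers 250 bases before to 50 after the RefSeq start on GRCm38.p6, chr13:30748983-30749282 on the plus strand, and capitals mark a TATA box.
Irf4: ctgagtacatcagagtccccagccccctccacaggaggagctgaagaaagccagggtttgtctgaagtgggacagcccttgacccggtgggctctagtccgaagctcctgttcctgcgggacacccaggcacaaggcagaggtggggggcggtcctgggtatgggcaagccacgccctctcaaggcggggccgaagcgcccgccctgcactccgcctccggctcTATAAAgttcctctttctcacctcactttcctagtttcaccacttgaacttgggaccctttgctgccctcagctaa
The search covered 5 motifs on both strands, namely the TATA box TATAAA, the core TGACG of the cyclic AMP response element, the STAT motif TTCNNNGAA, the forkhead motif TGTTTAC and the IRF motif GAAANNGAA. The TATA box begins 26 bases before the start, and 13.6% of the 32851 RefSeq promoters hold these letters. The letters of the other 4 motifs are not in this window. Over all promoters they were found in 20.8% (cyclic AMP element), 8.30% (STAT), 3.65% (forkhead) and 8.56% (IRF).

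On the repressing side, the CtBP corepressors differed little between the groups. Ctbp1 lay at 142 and 147 CPM in vehicle against 143 and 148 in BML-260, a log2 change of 0.01 (SE 0.12, edgeR adjusted p = 0.987). Ctbp2 lay at 20.5 and 20.5 CPM in vehicle against 22.01 and 20.1 in BML-260, a log2 change of 0.04 (SE 0.13, adjusted p = 0.934). As folds, their 95% intervals ran from 0.813 to 1.24 for Ctbp1 and from 0.816 to 1.29 for Ctbp2. These are the narrowest bounds among the 10 genes, along with Ehmt1.

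Tle3, the white-selective corepressor, lay at 78.5 and 91.8 CPM in vehicle against 96.7 and 85.6 in BML-260, with overlapping groups and a log2 change of 0.10 (SE 0.14, edgeR adjusted p = 0.830). Zfp423 lay at 49.98 and 35.3 CPM in vehicle against 30.2 and 35.7 in BML-260. Vehicle A alone stood high, and vehicle B fell between the treated libraries. Its log2 fold change was -0.37 (SE 0.20, adjusted p = 0.558), or -0.123 without vehicle A and -0.601 without vehicle B. Zfp423 is also expressed by adipocyte progenitors and mural cells. The 8 progenitor and fibroblast markers, led by Col3a1 and Col1a1, summed to 5727 and 7094 CPM in vehicle against 7736 and 6418 in BML-260. The sum, Col3a1 and Col1a1 were lowest in vehicle A, where Zfp423 was highest. The other markers on that list were all lowest in BML-260 B, and some of them were highest in vehicle A, as Zfp423 was. The 7 mural markers, led by Rgs5 and Cspg4, summed to 752 and 751 CPM in vehicle against 514 and 726 in BML-260. The sum was lowest in BML-260 A, where Zfp423 was lowest. Rgs5 itself was lowest in vehicle B and Cspg4 in vehicle A, while the other mural markers were lowest in BML-260 A. The part of either cell type in the level of Zfp423 was not tested.

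**Figure D3:**
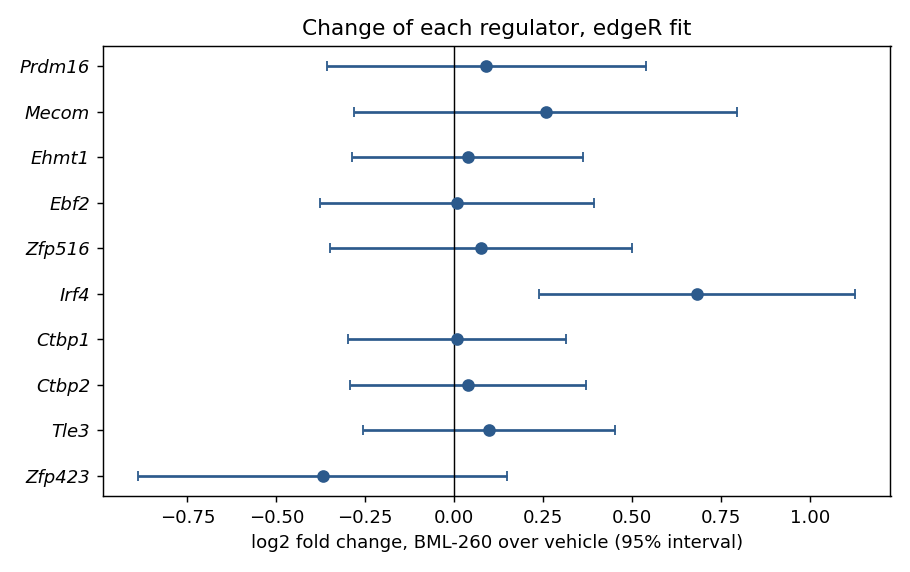
Log2 fold change of BML-260 over vehicle for each regulator from the edgeR fit, with 95% intervals from the 4 libraries. The intervals of 9 regulators include zero and that of Irf4, 0.24 to 1.13, does not, before adjustment over all genes.

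Levels of different genes were compared per length, as the authors' FPKM (fragments per kilobase, scaled to library depth). In vehicle the order ran from Ctbp1 at 79.6 ± 2.23 FPKM, higher than 92.3% of tested genes, through Tle3 at 22.3 ± 2.64, Ehmt1 at 14.2 ± 1.79 and Ctbp2 at 12.1 ± 0.310 (SD, n = 2). Prdm16 at 10.4 ± 0.433, Zfp423 at 9.96 ± 2.87 and Ebf2 at 9.22 ± 1.48 followed, and neighbours among these 3 overlapped. Irf4 at 5.70 ± 0.574, Mecom at 4.95 ± 4.16 and Zfp516 at 2.81 ± 0.206 closed the order, again with overlapping neighbours. The corepressor genes Ctbp1 and Tle3 thus had higher FPKM than any activator in every library. With BML-260 the first 4 kept their order by mean, and Irf4 at 8.99 ± 1.70 stood next to Ebf2 at 9.27 ± 0.297 and Prdm16 at 8.99 ± 2.11.

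Ratios within a library do not depend on how libraries are scaled, and 6 pairs of known partners were compared on FPKM. Ebf2 over its antagonist Zfp423 was 0.856 and 1.03 in vehicle against 1.35 and 1.103 in BML-260. The groups did not overlap, also when reads were used, with 0.913 and 1.03 against 1.39 and 1.12. The mean difference in log2 ratio was 0.38, beside SDs of 0.19 in vehicle and 0.21 in BML-260. From reads it was 0.37, beside fitted log2 changes of 0.01 for Ebf2 and -0.37 for Zfp423, which stood high in vehicle A alone. The share of all gene pairs without overlap was not computed. With 2 libraries per group an exact two-sided permutation test cannot give a p below 0.333, so no pair can pass. Prdm16 over Tle3 was 0.527 and 0.420 in vehicle and 0.300 and 0.477 in BML-260, with overlap. Prdm16 over Ctbp1, Ehmt1 over Prdm16 and Mecom over Prdm16 overlapped too. Ctbp1 over Ctbp2 was 6.59 and 6.57 in vehicle and 5.92 and 6.46 in BML-260 on FPKM, but its groups overlapped on reads.

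FPKM and counts told different things for Mecom, Prdm16 and Ehmt1. The length that links the values of a gene in a library was computed from its reads, its FPKM and the library total, after each library was scaled to the same median over genes. A gene's implied length varies when its reads are shared differently among its transcripts. For Mecom it was 1284 bases in vehicle A and 3888, 3703 and 3458 bases in vehicle B, BML-260 A and BML-260 B. This 3.03-fold range was reached or exceeded by 0.673% of 13375 genes with at least 20 reads in every library. The FPKM of Mecom was accordingly 7.89 in vehicle A and 2.01, 2.70 and 3.17 elsewhere, although vehicle A had no more reads than BML-260 B (207 and 245). The fitted direction reversed with it: limma on log2(FPKM + 0.1) gave -0.44 (adjusted p = 0.838), against 0.26 from counts.

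For Prdm16 the implied length was 5294 and 5005 bases in vehicle and 6450 and 6085 in BML-260, 1.22 times longer on average with treatment and without overlap. For Ehmt1 it was 3103 and 3222 bases against 3496 and 3471, also without overlap. Ctbp2 went the other way, with 1717 and 1731 bases against 1633 and 1624. So 2 members were longer and 1 shorter without overlap of the groups, where 14.7% and 16.9% of the 13375 genes were. For Prdm16, 2.11% of these genes were longer without overlap and by at least as much. Irf4 varied by less than the others, from 4463 to 4485 bases, so its difference is alike in both units.

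**Figure D4:**
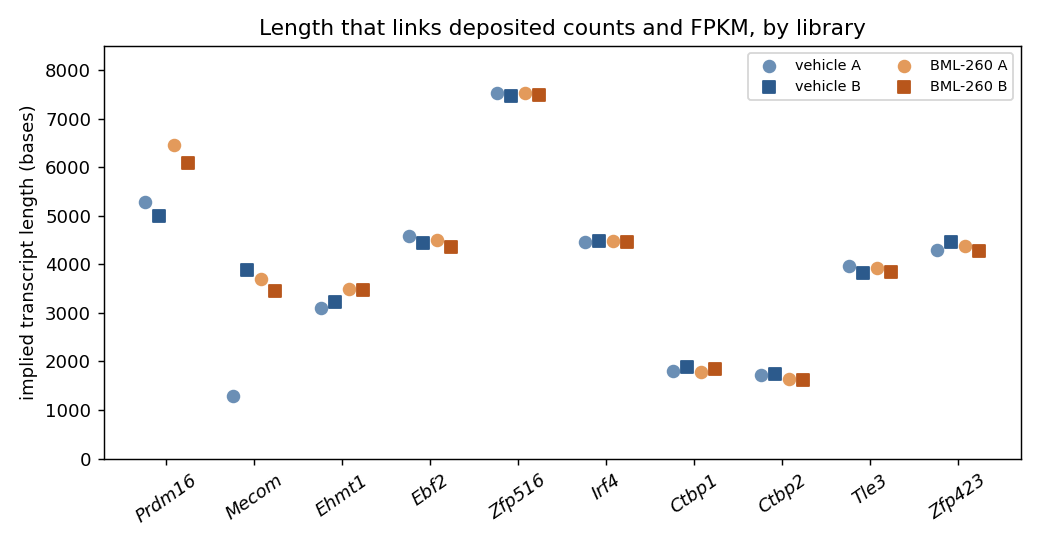
Implied transcript length in bases for each regulator, with 1 point per library on an axis from 0. Mecom in vehicle A, at 1284 bases, stands far below its other 3 libraries, and Prdm16 is longer in both BML-260 libraries than in either vehicle library.

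Annotation on GRCm38 (GENCODE vM21) gives Mecom 11 protein-coding transcripts of 348 to 5692 bases over 597 kb of chromosome 3, from 29951296 to 30548008 on the minus strand. Prdm16 has 7 such transcripts of 757 to 8601 bases on chromosome 4, from 154316125 to 154636873 on the minus strand. Which transcripts the reads came from was not analysed here. RefSeq lists promoters at 2 starts of Mecom that lie 496555 bases apart, and both are shown. The lengths of the transcripts from each start were not compared. The upstream window is chr3:30509710-30510009 and the downstream one chr3:30013155-30013454, both on the minus strand of GRCm38.p6, and capitals mark a match to the IRF motif named above.
Mecom upstream: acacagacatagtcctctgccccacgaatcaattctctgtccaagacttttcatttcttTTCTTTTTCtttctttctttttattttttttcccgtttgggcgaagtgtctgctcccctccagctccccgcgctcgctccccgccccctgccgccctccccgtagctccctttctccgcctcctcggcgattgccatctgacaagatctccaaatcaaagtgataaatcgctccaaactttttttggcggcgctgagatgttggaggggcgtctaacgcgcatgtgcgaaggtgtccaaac
Mecom downstream: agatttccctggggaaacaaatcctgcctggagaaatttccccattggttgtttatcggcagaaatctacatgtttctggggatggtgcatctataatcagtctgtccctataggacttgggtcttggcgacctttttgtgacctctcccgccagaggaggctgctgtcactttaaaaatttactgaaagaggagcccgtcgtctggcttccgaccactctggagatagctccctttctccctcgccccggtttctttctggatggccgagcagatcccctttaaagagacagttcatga
The upstream window holds 19 CpG dinucleotides and the downstream one 9, where the median of all RefSeq promoters is 7. The IRF match lies in a run of pyrimidines, and the letters of the other 4 motifs are in neither window. Promoter windows were matched for 8 of the 10 members.

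By the authors' deposited adjusted p none of the 10 regulators is under 0.05, and the smallest is that of Irf4, 0.129, with a log2 change of 0.594. In the authors' deposited table Mecom has -0.204, Prdm16 -0.0709 and Ehmt1 -0.0248, each with the sign of its FPKM and not of its counts. The same was found over the table: 193 tested genes had count and FPKM differences of opposite sign that were over 0.5 apart on the log2 scale, and the authors' deposited fold change had the sign of the FPKM in 193 of them.

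Other genes that act with these regulators were described by list. List members were chosen by known role but with earlier results of these data known, so the counts are only a description. Of 15 partners and modifiers of PRDM16, 0 were called by edgeR. At an unadjusted p below 0.05, 2 (13.3%) were higher and 0 lower, against 7.45% and 3.61% of all tested genes. The list had a median log2 change of 0.02. Those 2 were the PGC-1 coactivator genes. Ppargc1b lay at 8.45 and 7.43 CPM in vehicle against 12.6 and 12.3 in BML-260, and Ppargc1a at 13.2 and 9.38 against 16.6 and 18.6. Cebpa, a core adipogenic factor, lay at 850 and 889 CPM against 555 and 732, and did not reach an unadjusted p of 0.05.

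Of 15 other activators of thermogenic genes, edgeR called 0 and DESeq2 called 2 higher, Ppara and Tbx15. Of all genes to which DESeq2 gave an adjusted p, 2.69% were called in either direction. The list median was 0.05. At an unadjusted p under 0.05 in edgeR, 2 (13.3%) were higher and 1 (6.67%) lower, against 7.45% and 3.61% of all tested genes. Those higher were Ppara and Tbx15, and Nfia was lower. Ppara, a nuclear receptor for fatty acids, lay at 25.3 and 24.8 CPM in vehicle against 48.5 and 54.5 in BML-260 (log2 fold change 1.04, SE 0.12, edgeR adjusted p = 0.216). Tbx15, a developmental T-box factor of fat depots and muscle, lay at 23.5 and 31.5 CPM against 51.9 and 58.4 (log2 fold change 1.003, SE 0.18, adjusted p = 0.285). Nfia, which acts ahead of PPARG at brown fat enhancers, was at 91.7 and 87.0 CPM in vehicle against 63.5 and 66.9 in BML-260, a log2 change of -0.45 (SE 0.11, adjusted p = 0.330). Thra, the thyroid hormone receptor alpha gene, had -0.32 (SE 0.13). Skeletal muscle also expresses Ppara and Tbx15, and the share of muscle markers was higher in the treated libraries. Between vehicle A and B that share went from 0.0352% to 0.915%, while Ppara stood at 25.3 and 24.8 CPM and Tbx15 at 23.5 and 31.5. The part of muscle in the values of both genes was not tested.

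Of 10 tested repressors of thermogenic genes beyond the members, edgeR and DESeq2 called 0, and the list median was -0.07. At an unadjusted p under 0.05, 2 (20%) were lower and 0 higher, against 3.61% and 7.45% of all tested genes. Twist1, a brake on PGC-1alpha, lay at 28.7 and 33.3 CPM in vehicle against 22.7 and 24.2 in BML-260. Hoxc8, a white depot patterning gene, lay at 59.0 and 51.1 CPM against 38.6 and 44.2. The log2 change was 0.37 (SE 0.18) for Rbl1 and -0.22 (SE 0.12) for Foxo1.

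Genes under the regulators' known control had larger fitted changes than the regulators at the median, which was 0.06 for the members. At an unadjusted p under 0.05, edgeR had 13 of 17 brown fat genes higher and 0 lower, against 7.45% and 3.61% of all tested genes, with a median log2 fold change of 1.52. EdgeR called Ucp1, and DESeq2 called 11 of the 17, against 2.69% of the genes to which it gave an adjusted p. Dio2, which activates thyroid hormone, had 3.68 (SE 0.24, edgeR adjusted p = 0.119), Cpt1b, of mitochondrial fatty acid import, 2.81 (SE 0.27) and the thioesterase gene Acot11 2.25 (SE 0.19). This list was chosen with its behaviour in these libraries known, and striated muscle also expresses Cpt1b, Fabp3, Cox7a1, Cox8b, Ppara and Ppargc1a. Muscle markers took a larger share of counts in the treated libraries, and the part of muscle in these values was not tested. Ppara and Ppargc1a are also counted in the lists of other activators and of partners above.

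Of 8 white fat genes known to be repressed by PRDM16 with CtBP, 8 were below zero, as were 7429 of all 15643 tested genes. The list had a median log2 fold change of -0.52 and was also chosen with earlier results of these data known. In edgeR 0 were called, and 2 were lower at an unadjusted p under 0.05, against 3.61% of all tested genes. Those 2 were Agt and Retn. DESeq2 called 2 lower, Agt and Gsn, where it called 2.69% of all genes with an adjusted p in either direction. Gsn, an actin-severing protein gene, was at -0.49 (SE 0.28). Agt, the angiotensinogen gene, lay at 64.2 and 76.8 CPM in vehicle against 19.6 and 25.7 in BML-260, a log2 change of -1.64 (SE 0.18, edgeR adjusted p = 0.216). Retn, the resistin gene, lay at 1025 and 1024 CPM against 519 and 754. Psat1 and Serpina3k had -0.54 (SE 0.22) and -0.77 (SE 0.39). The 8 adipocyte markers, led by Fabp4 and Pnpla2, had summed levels of 21505 to 21920 CPM in vehicle and 14692 to 20355 in BML-260. Retn and Lep belong to both lists, and the part of adipocyte content in these values was not tested.

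The 5 lipolysis genes listed for IRF4 were all below zero, as were 7429 of all 15643 tested genes, whereas Irf4 itself was above zero. Which of the 5 genes IRF4 regulates in this tissue was not tested. The list had a median of -0.26, with 0 called. At an unadjusted p under 0.05, 1 was lower, against 3.61% of all tested genes. That was Abhd5, the activator of adipose triglyceride lipase, at -0.55 (SE 0.21), while the lipase genes Pnpla2, Lipe and Mgll had -0.39, -0.26 and -0.24 and the droplet coat gene Plin1 -0.20. Each of the 5 was lowest in BML-260 A, as was the adipocyte marker sum, but Pnpla2, Lipe and Plin1 belong to both lists, so the 2 are not independent. The part of adipocyte content in these values was not tested.

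**Figure D5:**
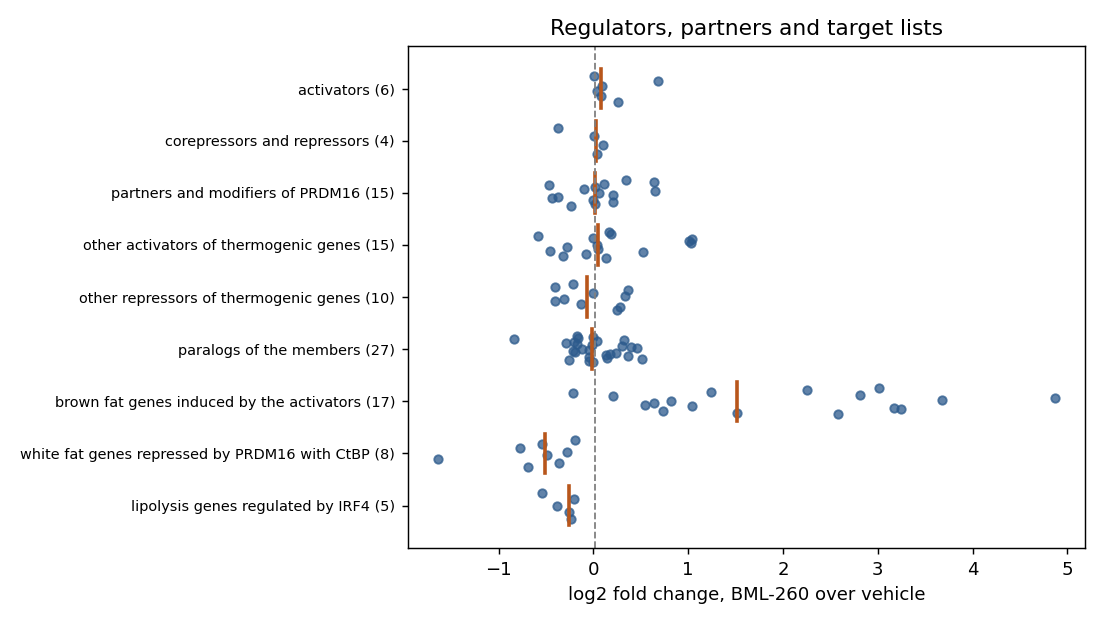
Log2 fold change of BML-260 over vehicle for each tested gene of the 9 lists, 1 point per gene with tested genes in brackets. Orange bars are list medians and the dashed line is the median of all tested genes, 0.02; points of the regulator lists centre on it, whereas the brown fat list lies to the right with a median of 1.52.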

How the data were processed

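RNA libraries from subcutaneous fat were sequenced, and the authors deposited 1 table of expected counts per gene, estimated counts that need not be whole, without normalization. Library totals ran from 19999836 to 23726781. The table also holds FPKM, per the file headers, the authors' group means of FPKM also on a log2 scale with 0.1 added, as the values show, and the authors' own log2 fold change with its p-value and adjusted p-value. Tools listed in the submitters' processing notes, with no role or order, are DESeq2 1.10.1, RSEM 1.2.31 and HISAT2 2.1.0, and the build is GRCm38.p5. No strand setting or annotation is stated there, and genes that overlap others have uncertain counts.

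Libraries were grouped by their titles. Counts were rounded, filtered with filterByExpr (15643 of 51912 genes) and tested with edgeR 4.0.16 (R 4.3.3) quasi-likelihood (TMM scaling, a model of group alone, two-sided p, Benjamini-Hochberg at 0.05). There were 2 residual and 3.28 prior degrees of freedom. Standard errors are the log2 fold change over the square root of F, and levels are TMM-scaled CPM. All 10 members are named, and from each list the 4 tested genes with the smallest p (all where 5 or fewer were tested), plus genes called; 1 gene that this rule names is not reported here. Of each marker list the 2 with the highest level are named. The members and lists were chosen with earlier results of these data known. Alternatives were DESeq2 1.42.0, limma 3.58.1 (voom, and log2 FPKM with a pseudocount of 0.1 or 1), other scaling and filters, the library letter as a term, and leaving out each library. The edgeR step was tested on simulated data. Libraries of 1 group differed by more than counting noise (chi-square per degree of freedom 40.7 and 45.9). Implied length is the reads of a gene divided by its FPKM and the library total, expressed in bases. Of 9 listed white fat genes, 8 matched a symbol.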

Additional observations from a re-analysis of the deposited data

How the results depend on the processing

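None of the 10 regulators was called under any of the 14 alternatives. The smallest adjusted p of a regulator was 0.0502, for Irf4 with no filter on low counts, and over all alternatives Irf4 had adjusted p values of 0.0502 to 0.951 and log2 fold changes of 0.482 to 0.843. Zfp423 ranged from -0.601 to -0.123. The number of genes called over the whole table changed from 1 to 651 with no filter, to 405 with DESeq2 and to 0 with the replicate block, where the library letter was a term. The titles do not say whether same-lettered libraries were paired. Their deviations had a correlation of -0.0401 over genes, which cannot decide this, since differences in tissue content within a group could hide a pairing. Leaving out 1 library gave 0 calls (without vehicle A) to 309 (without vehicle B), with 5 without BML-260 B, and the single library of a group is then assumed to vary like the other group. Of 140 regulator values under alternatives, 114 kept their direction and 26 reversed, none past the threshold; the cause was not tested. With upper-quartile factors the log2 fold changes that reversed were -0.0477 (Ebf2), -0.018 (Ehmt1), -0.0476 (Ctbp1) and -0.0169 (Ctbp2), and with library totals -0.0451, -0.02, -0.0458 and -0.011. On log2(FPKM + 0.1) they were -0.234 (Prdm16), -0.128 (Ehmt1) and -0.439 (Mecom), and on log2(FPKM + 1) -0.213, -0.121 and -0.396. With each library left out in turn, Prdm16 ranged from -0.151 to 0.279, Ebf2 from -0.152 to 0.157, Ehmt1 from -0.0441 to 0.0954, Zfp516 from -0.108 to 0.224, Ctbp1 from -0.0432 to 0.0301, Ctbp2 from -0.0428 to 0.0984 and Tle3 from -0.0394 to 0.213. Depth limits Mecom most, at 180 to 245 reads per library.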

Other observations

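Close relatives of the regulators gave 27 tested genes, of which edgeR and DESeq2 called 0, with a median log2 fold change of -0.02. By edgeR's unadjusted p below 0.05, 1 was lower and 0 higher, against 3.61% and 7.45% of all tested genes. The lower one was Irf3, an interferon regulatory factor of antiviral signalling, at 57.0 and 59.9 CPM in vehicle against 46.7 and 48.9 in BML-260 (log2 fold change -0.29, SE 0.11, edgeR adjusted p = 0.444). Irf1, also of interferon responses, had -0.20 (SE 0.12), the TLE corepressor gene Tle4 0.39 (SE 0.25) and Prdm15, another PRDM family gene, 0.32 (SE 0.20). Whether Irf4 differs from its relatives in its change was not tested. Irf8, a myeloid and B cell factor named here after its values were seen, lay at 18.4 and 30.8 CPM in vehicle, against 46.95 (BML-260 A) and 20.6 (BML-260 B).

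Ebf1, the relative of Ebf2 that adipocytes and B cells both express, was also named after its values were seen. It lay at 88.8 and 84.4 CPM in vehicle against 81.2 and 78.1 in BML-260. Of the listed relatives and regulators, Tcf21 and Ebf4 had too few reads to be tested.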
